A study of Mus musculus with 8 samples.

Results

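The genes Cxcl9, Cxcl10 and Cxcl11 lie near each other on mouse chromosome 5 and belong to a family of chemokine genes driven by interferons. Their region was taken as all accessibility peaks on build mm9 that end at or after 92740000 and start at or before 92815000 on this chromosome, with Cxcl10 near 92775000 to 92778000. This gave 14 peaks of the 74207 in the table, and all 14 passed the filter on low values, as did 66786 peaks in all. The assay was ATAC-seq: the transposase Tn5 inserts adapters where chromatin is open, and the reads that pile up there measure accessibility. The cells were macrophages grown from bone marrow (genotype WT, strain C57Bl/6). Of the 4 treatments, each has 1 library from each of the same 2 mice. In the fit reported, the spread between the 2 mice of a group is pooled over the 4 groups. It is then drawn toward the spread of all tested peaks, and the p-values rest on the result. Cells were given fenoterol and then LPS, LPS without fenoterol, fenoterol without LPS, or were kept unstimulated. Fenoterol, an agonist of the β2 adrenergic receptor, was used at 1 µM for 15 min, and LPS, the bacterial lipopolysaccharide sensed by Toll-like receptor 4, at 100 ng/mL for 1 h. The cells given both had a further 1 h after the agonist that the cells given fenoterol alone did not have. The macrophages were cultured in medium named CMG, and the table gives no gene names by which their identity could be checked. In such bulk libraries, a change in the share of cells that open a peak and a change within each cell cannot be told apart.

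CXCL9, CXCL10 and CXCL11 share the receptor CXCR3, through which they attract activated T cells and natural killer cells. In macrophages, LPS starts NF-κB and, through the adaptor TRIF and the factor IRF3, the production of interferon-β. Cxcl10 is known to be induced by both routes, through NF-κB motifs and an interferon-stimulated response element (ISRE) in its promoter, whereas Cxcl9 is known above all for its response to interferon-γ. In the RefSeq gene table (assembly GRCm38.p6, a later build than that of the peaks and used here for names and order only), Cxcl9 and Cxcl10 are protein coding and Cxcl11 is a transcribed pseudogene. Coordinates there run from Sdad1 through Cxcl9, Art3, Cxcl10, Cxcl11 and Gm2673 to Nup54. Cxcl9 and Cxcl10 are annotated on the minus strand, so the 5′ end of each is at its higher coordinate. No annotation on mm9 was used, so only the peaks that overlap the Cxcl10 interval are tied to a gene, and the others are described by the side of Cxcl10 on which they lie.

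Of the 3 genes, Cxcl11 had no entry among the promoter windows available, so the windows of Cxcl9 and Cxcl10 are shown. They are RefSeq sequences on GRCm38.p6, each 300 bases on the minus strand, 250 before and 50 after the annotated start. Both strands were searched for 6 motifs, and capitals mark matches to the ISRE, NF-κB and AP-1 motifs.

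Cxcl10 (chr5:92348840-92349139): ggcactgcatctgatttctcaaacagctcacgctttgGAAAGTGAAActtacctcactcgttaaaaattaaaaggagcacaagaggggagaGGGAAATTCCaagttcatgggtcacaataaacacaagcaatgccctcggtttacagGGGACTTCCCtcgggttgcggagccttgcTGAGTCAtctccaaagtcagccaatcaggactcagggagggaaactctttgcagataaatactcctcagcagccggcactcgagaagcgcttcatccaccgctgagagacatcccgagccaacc

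Cxcl9 (chr5:92328030-92328329): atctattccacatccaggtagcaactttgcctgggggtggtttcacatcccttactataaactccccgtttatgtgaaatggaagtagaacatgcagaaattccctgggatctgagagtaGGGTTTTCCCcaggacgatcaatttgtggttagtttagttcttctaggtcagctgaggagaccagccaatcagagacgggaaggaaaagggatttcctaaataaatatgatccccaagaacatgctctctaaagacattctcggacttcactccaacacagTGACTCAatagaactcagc

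In the Cxcl10 window the ISRE motif, read as GAAA, any 2 bases and GAAA, matched once, as GAAAGTGAAA at -213 to -204 from the start. The NF-κB motif, read as GGGA, any 4 bases and CC, matched as GGGAAATTCC at -159 to -150 and, on both strands, as GGGACTTCCC at -103 to -94. The AP-1 motif TGANTCA matched as TGAGTCA at -74 to -68. In the Cxcl9 window the NF-κB motif matched on the opposite strand at -130 to -121, AP-1 at 32 to 38 and TATAAA at -195 to -190, and the ISRE motif had no match in this window. No match to the cAMP response element (TGAC followed by GTCA) or to GAGGAA, the ETS string searched, was found in either window. Shorter ETS strings such as GGAA, which both windows hold, were not searched. TATAAA had no match in the window of Cxcl10. Of 32851 mouse promoter windows of this length, 3.44% held the ISRE motif, 20.7% the NF-κB motif, 7.81% AP-1, 13.6% TATAAA, 28.3% GAGGAA and 1.79% the cAMP response element. A match describes the letters in a window and does not show that a factor binds there. The windows come from another build than the peaks, so which peak holds which window was not tested.

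**Figure D1:**
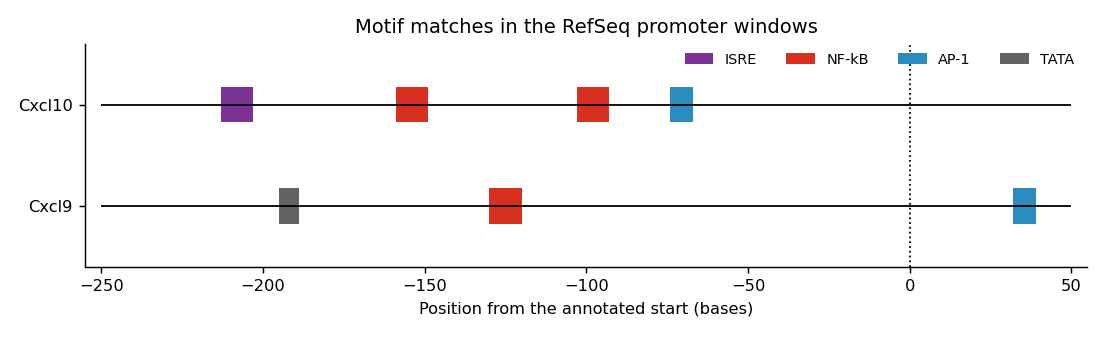
Matches to 4 of the searched motifs in the promoter windows of Cxcl10 (top) and Cxcl9 (bottom), by position in bases from the annotated start (dotted line). The Cxcl10 window has the ISRE match at -213, NF-κB matches at -159 and -103 and the AP-1 match at -74, and the Cxcl9 window has NF-κB at -130 and no ISRE match.

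Values are RPKM, that is reads per kilobase of peak relative to all reads in peaks, scaled between libraries, so levels can be compared between peaks. Depth was uneven: mouse 1 unstimulated had 1426873 reads in peaks, and the other 7 libraries had 3164446 to 4040292. Its low counts are therefore given beside the results they touch. Changes were tested with limma-trend over all 66786 peaks on log2(RPKM + 4) with Benjamini-Hochberg adjustment at 0.05, and a peak is said to rise or fall only where it passed. A fold change on this scale is smaller than the ratio of the levels.

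Summed over its peaks, which cover 6411 bp, the region was more open in all 4 libraries with LPS than in the 4 without. The level per kb was 29.8 and 35 RPKM with fenoterol + LPS (mouse 1 and mouse 2, the order used throughout), 33.3 and 36.9 RPKM with LPS, 17.6 and 18.8 RPKM with fenoterol, and 22.4 and 19.3 RPKM in unstimulated cells. Group means were 32.4 ± 3.69, 35.1 ± 2.56, 18.2 ± 0.864 and 20.8 ± 2.16 RPKM in the same order (SD, n = 2 mice each). The gap was wider in the 4 peaks that overlap the Cxcl10 interval. Those held 33.7 and 46.8 RPKM with fenoterol + LPS, 46 and 55.5 RPKM with LPS, 8.59 and 11.5 RPKM with fenoterol, and 15.6 and 11.1 RPKM unstimulated. The other 10 peaks held 28.4 and 30.8 RPKM with fenoterol + LPS, 28.6 and 30.1 RPKM with LPS, 20.9 and 21.4 RPKM with fenoterol, and 24.8 and 22.3 RPKM unstimulated.

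**Figure D2:**
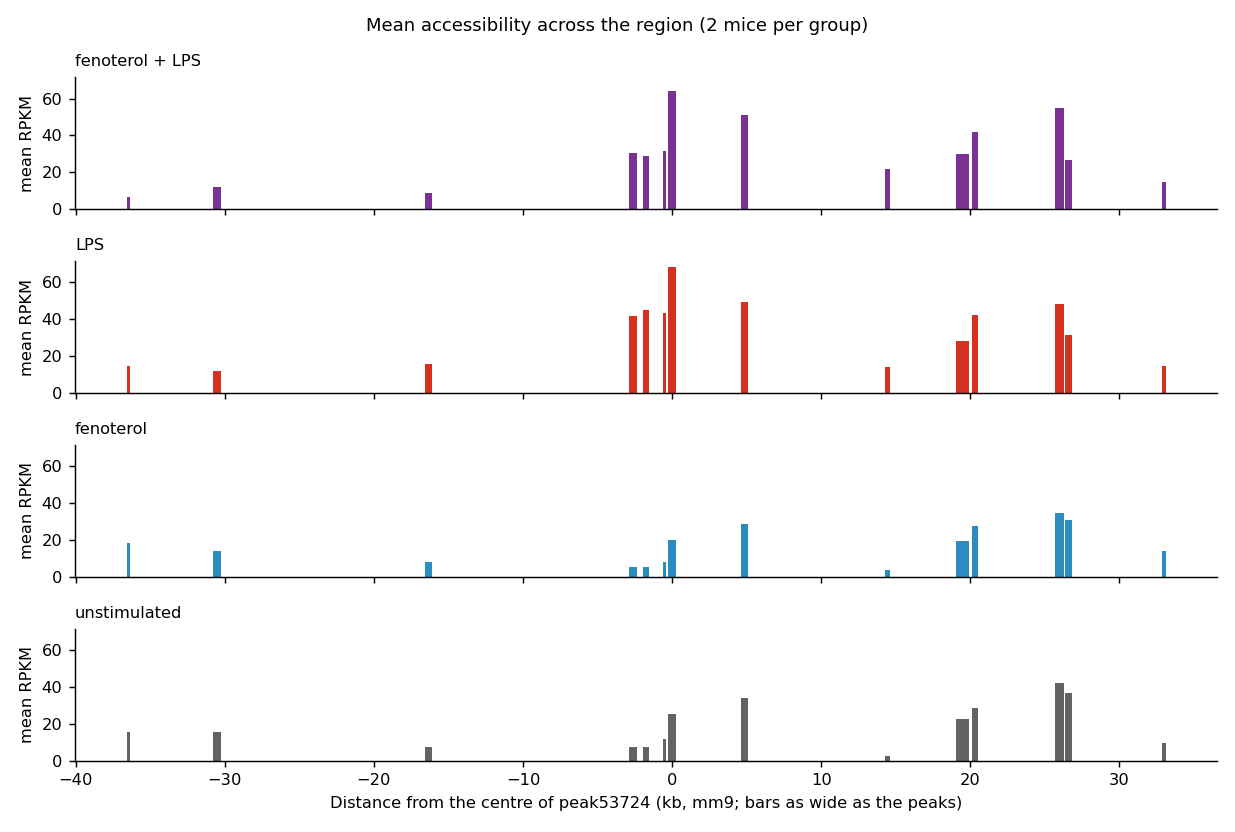
Mean scaled RPKM of each of the 14 peaks in the 4 groups (2 mice each) against distance in kb from the centre of peak53724. The 4 peaks around 0, which overlap the Cxcl10 interval, and the peak near 15 kb are lower without LPS than with it, whereas the 3 leftmost peaks stay below 20 RPKM in every group.

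Chromatin at Cxcl10 opened with LPS. Of the 14 peaks, 7 rose and 0 fell against unstimulated cells, where 6.53% of all tested peaks rose and 3.54% fell. The 7 comprise all 4 at the Cxcl10 interval, and the other 3 lie on the Cxcl11 side. The median log2 change of the 14 peaks was 0.52, and that of all tested peaks -0.03. In 8 peaks all 4 libraries with LPS lay above all 4 without, which 12.3% of all tested peaks did, and in 0 peaks all 4 lay below, which 11.3% did.

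The tallest of the 4, peak53724 at 92777699 to 92778213, lies at the higher-coordinate end of the interval, which is the 5′ side of Cxcl10. It held 59.0 and 68.9 RPKM with fenoterol + LPS, 72.7 and 63.8 RPKM with LPS, 18.9 and 21.0 RPKM with fenoterol, and 30.5 and 20.1 RPKM unstimulated. The 4 libraries with LPS did not overlap the 4 without, and the shallow unstimulated library of mouse 1 was the highest of those without, at 21 reads (exact 95% Poisson interval 13.0 to 32.1). It rose 2.50-fold with LPS (log2 change 1.32, SE 0.16, adjusted p = 3.18e-05 by limma-trend). Unlike the other 3 peaks at Cxcl10, it was above 18 RPKM in every library without LPS.

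Next to it, 164 bp away, peak53723 at 92777318 to 92777535 held 25.6 and 37.3 RPKM with fenoterol + LPS, 35.2 and 51.2 RPKM with LPS, 7.23 and 9.47 RPKM with fenoterol, and 6.88 and 16.6 RPKM unstimulated. Again no library without LPS reached the lowest with it, although the unstimulated value of mouse 1 rests on 2 reads. The rise with LPS was 3.11-fold (log2 change 1.64, SE 0.27, adjusted p = 0.000498).

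Toward the 3′ side of Cxcl10, peak53722 at 92775979 to 92776417 held 21.9 and 36.3 RPKM with fenoterol + LPS, 34.9 and 55.7 RPKM with LPS, 3.58 and 7.04 RPKM with fenoterol, and 10.2 and 4.94 RPKM unstimulated. It rose 4.27-fold with LPS (log2 change 2.09, SE 0.30, adjusted p = 0.000128), the highest fitted change of the region. This order did not hold without unstimulated mouse 2, where peak53723 had a log2 change of 2.10, peak53722 1.76 and peak53721 1.74. The neighbouring peak53721 at 92775084 to 92775632 held 22.6 and 38.2 RPKM with fenoterol + LPS, 34.1 and 49.4 RPKM with LPS, 3.43 and 7.03 RPKM with fenoterol, and 9.53 and 5.26 RPKM unstimulated. It rose 4.03-fold (log2 change 2.01, SE 0.29, adjusted p = 0.000153). Both changes ranked at the 99.9th percentile of all tested peaks. Their group means without LPS were under the filter at 9.62 RPKM. With fenoterol and unstimulated these were 5.309 and 7.58 RPKM at peak53722, and 5.233 and 7.397 RPKM at peak53721. The place of both among the tested peaks therefore depended on the groups with LPS. With no filter both were called by limma-trend (adjusted p = 9.76e-05 and 0.000119).

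Both were low in every library without LPS and high in every one with it. As plain ratios, peak53722 was 3.41 times as high with LPS as unstimulated in mouse 1 and 11.3 times in mouse 2, and peak53721 3.57 and 9.40 times. The smaller ratio of mouse 1 goes with both a lower LPS value and a higher value in its shallow unstimulated library, where peak53721 had 7 reads (exact 95% Poisson interval 2.81 to 14.4) and peak53722 had 6. The calls of all 4 peaks at Cxcl10 were kept under all 19 alternatives for both comparisons with LPS, among them leaving out each library in turn, with adjusted p of at most 0.0362.

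**Figure D3:**
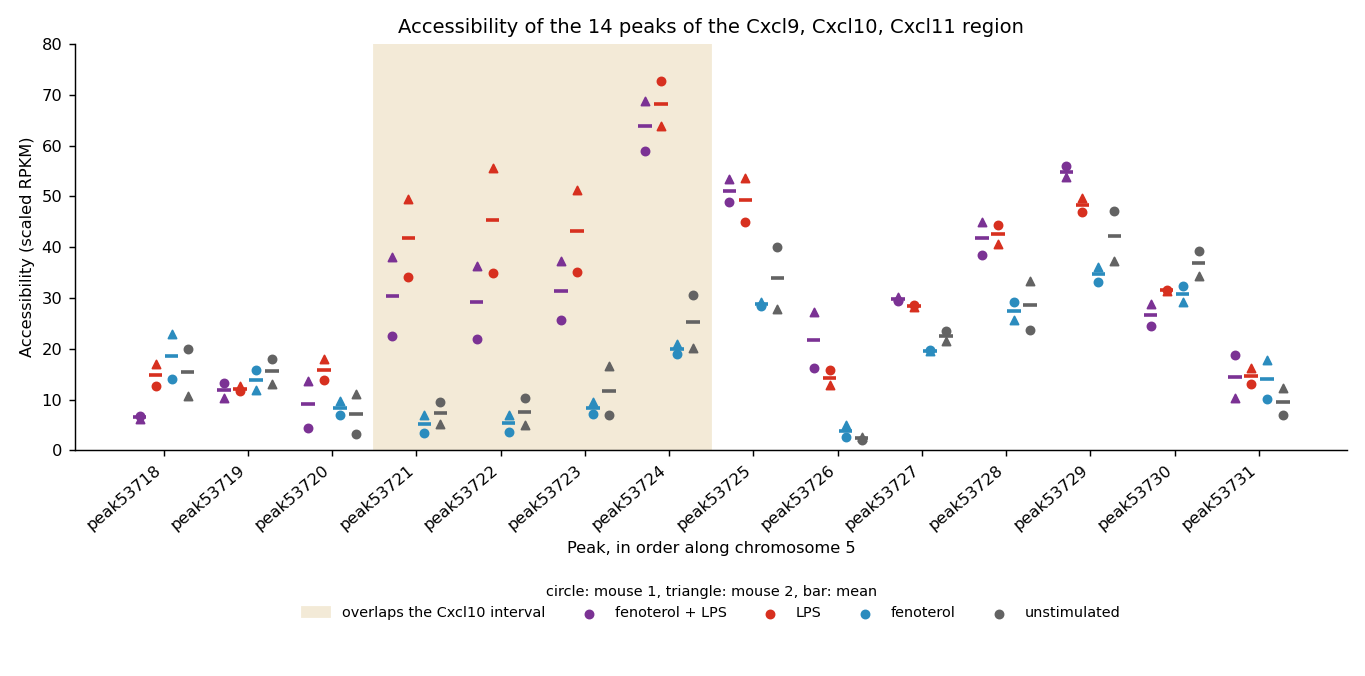
Scaled RPKM of each peak in each library, in order along chromosome 5, with groups in 4 colours, circles for mouse 1, triangles for mouse 2 and a bar at the mean. At the 4 shaded peaks, which overlap the Cxcl10 interval, and at peak53726 the values with LPS stand clear of those without, and among the LPS libraries mouse 2 is above mouse 1 at the first 3 shaded peaks.

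On the Cxcl11 side of Cxcl10, peak53726 at 92792229 to 92792588 was the lowest before LPS. It held 16.2 and 27.2 RPKM with fenoterol + LPS, 15.8 and 12.8 RPKM with LPS, 2.62 and 5.01 RPKM with fenoterol, and 2.08 and 2.68 RPKM unstimulated. The unstimulated values are 1 and 4 reads, and no value in the deposited table is under 1 read, so that of mouse 1 is at the floor of the table. The group means of peak53726 without LPS, 3.815 RPKM with fenoterol and 2.378 RPKM unstimulated, were under the filter at 9.62 RPKM. Its place among the tested peaks therefore depended on the groups with LPS. With no filter it was called for LPS against unstimulated cells (adjusted p = 0.00939 by limma-trend). In the fit reported the peak rose 2.86-fold with LPS (log2 change 1.52, SE 0.37, adjusted p = 0.0105). This call was lost without the LPS library of mouse 1 (log2 change 1.40, adjusted p = 0.118) and without that of mouse 2 (1.63, 0.0689).

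Between it and Cxcl10, peak53725 at 92782599 to 92783064 was open in every group, with 48.9 and 53.4 RPKM with fenoterol + LPS, 45.0 and 53.6 RPKM with LPS, 28.3 and 29.3 RPKM with fenoterol, and 40.1 and 27.9 RPKM unstimulated. It rose 1.42-fold with LPS (log2 change 0.50, SE 0.16, adjusted p = 0.0462), a call lost in 10 of 19 alternatives, among them leaving out either LPS library (adjusted p = 0.0868 and 0.35) or unstimulated mouse 2 (log2 change 0.27, adjusted p = 0.223). Farther out, peak53728 at 92798043 to 92798483 held 38.5 and 45.0 RPKM with fenoterol + LPS, 44.4 and 40.6 RPKM with LPS, 29.2 and 25.7 RPKM with fenoterol, and 23.7 and 33.3 RPKM unstimulated. Its 1.44-fold rise (log2 change 0.53, SE 0.16, adjusted p = 0.039) was lost in 9 of 19, among them voom on the recovered reads (adjusted p = 0.14) and the fit lacking unstimulated mouse 1 (log2 change 0.32, adjusted p = 0.284).

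The other 4 peaks of this side did not pass for LPS against unstimulated cells. Peak53727 at 92796999 to 92797892, the widest of the region at 893 bp, held 29.4 and 30.3 RPKM with fenoterol + LPS, 28.5 and 28.2 RPKM with LPS, 19.7 and 19.6 RPKM with fenoterol, and 23.4 and 21.5 RPKM unstimulated. Its libraries with and without LPS did not overlap, but the LPS difference of 0.29 (log2, interval -0.05 to 0.63) had an adjusted p of 0.292. Peak53729 at 92803617 to 92804250 held 55.9 and 53.7 RPKM with fenoterol + LPS, 46.9 and 49.6 RPKM with LPS, 33.2 and 36.1 RPKM with fenoterol, and 47.2 and 37.2 RPKM unstimulated. In unstimulated cells it had the highest mean of the 14 peaks, and LPS differed by 0.19 (log2, interval -0.11 to 0.48, adjusted p = 0.454).

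A gap of 79 bp from it lay peak53730 at 92804329 to 92804804. Its LPS difference from unstimulated cells was -0.20 (log2, interval -0.52 to 0.11, adjusted p = 0.455 by limma-trend). It held 24.5 and 28.8 RPKM with fenoterol + LPS, 31.6 and 31.4 RPKM with LPS, 32.4 and 29.2 RPKM with fenoterol, and 39.3 and 34.4 RPKM unstimulated, without passing in any comparison. Peak53731 at 92810828 to 92811044 held 18.7 and 10.3 RPKM with fenoterol + LPS, 13.1 and 16.3 RPKM with LPS, 10.2 and 17.8 RPKM with fenoterol, and 6.91 and 12.2 RPKM unstimulated. Its groups overlapped and its values rest on 2 to 16 reads.

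On the Cxcl9 side, 3 low peaks stood apart from the rest and none passed for LPS against unstimulated cells. Peak53720 at 92761406 to 92761858, 13226 bp from the nearest peak at Cxcl10, held 4.47 and 13.6 RPKM with fenoterol + LPS, 13.8 and 18 RPKM with LPS, 6.94 and 9.66 RPKM with fenoterol, and 3.30 and 11.2 RPKM unstimulated. Of its group means only that with LPS, 15.9 RPKM, was above the filter at 9.62 RPKM, so its place among the tested peaks depended on that group. LPS differed from unstimulated cells by 0.91 (log2, interval 0.07 to 1.75, adjusted p = 0.17), with 2 reads in the unstimulated library of mouse 1. Without unstimulated mouse 2, which leaves this shallow library alone, peak53720 passed (log2 change 1.44, adjusted p = 0.0257). Peak53719 at 92747198 to 92747735 held 13.2 and 10.4 RPKM with fenoterol + LPS, 11.6 and 12.6 RPKM with LPS, 15.8 and 12.0 RPKM with fenoterol, and 18.1 and 13.0 RPKM unstimulated. The outermost, peak53718 at 92741405 to 92741629, held 6.77 and 6.22 RPKM with fenoterol + LPS, 12.6 and 16.9 RPKM with LPS, 14 and 22.9 RPKM with fenoterol, and 20 and 10.7 RPKM unstimulated. Between peak53719 and peak53720 lay 13671 bp without a peak of the table, the widest gap of the region.

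Chromatin at Cxcl10 was also more open with fenoterol + LPS than with fenoterol alone. The cells given both had a further 1 h after the agonist, so LPS and this time cannot be told apart here. Against fenoterol alone, 9 peaks rose with fenoterol + LPS, where 9.43% of all tested peaks rose, and 1 fell, where 4.32% fell. The 9 include all 7 that rose with LPS alone, together with peak53727 and peak53729. The median log2 change of the 14 peaks was 0.57, beside -0.03 for all tested peaks. The 4 libraries compared here are not those of the comparison above, but the spread of both comes from all 8.

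At Cxcl10 the rise with fenoterol + LPS over fenoterol alone was 2.83-fold at peak53724 (log2 change 1.5, SE 0.16, adjusted p = 5.06e-06). It was 2.84-fold at peak53723 (1.51, SE 0.27, adjusted p = 0.000683), 3.53-fold at peak53722 (1.82, SE 0.30, adjusted p = 0.00032) and 3.70-fold at peak53721 (1.89, SE 0.29, adjusted p = 0.000181). On the Cxcl11 side peak53726 rose 3.25-fold (log2 change 1.70, SE 0.37, adjusted p = 0.00328), a call lost when mouse 2 with fenoterol + LPS was left out (log2 change 1.39, adjusted p = 0.0988) or mouse 1 with fenoterol (1.48, 0.0502). Peak53725 rose 1.68-fold (adjusted p = 0.00273) and kept its call under all 19 alternatives.

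Of the smaller rises, that of peak53729 was 1.52-fold (adjusted p = 0.00582), that of peak53728 1.45-fold (adjusted p = 0.0282) and that of peak53727 1.43-fold (adjusted p = 0.0387). Their calls were lost in 3, 5 and 7 of 19 alternatives, in this order. A limma fit with constant prior variance was among these for each (adjusted p = 0.0627, 0.128 and 0.072). For peak53727 leaving out either LPS library, not compared here, was also among them. Leaving out any 1 of the 4 libraries compared ended the calls of peak53728 (adjusted p 0.0668 to 0.249) and peak53727 (0.121 to 0.201), and leaving out either library of mouse 1 ended that of peak53729 (0.069 and 0.0812). The peak that fell, peak53718, was 0.476-fold (log2 change -1.07, SE 0.31, adjusted p = 0.0228) on 5 to 20 reads in these libraries. Its call was lost without either fenoterol + LPS library (adjusted p = 0.0916 and 0.119) and without the fenoterol library of mouse 2 (log2 change -0.78, adjusted p = 0.24).

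Whether fenoterol altered the LPS response was tested as the interaction of both agents. The interaction includes the cells given fenoterol alone, so the further 1 h after the agonist cannot be told apart from LPS in it. By limma-trend 0 of the 14 peaks passed in either direction, as did 0% of all tested peaks, and 2 members, peak53718 and peak53729, had an unadjusted p under 0.05, as did 6.33% of all tested peaks. By voom the count in the region was also 0, with 4 calls over all peaks. At the 4 peaks of Cxcl10 the interaction was 0.18 at peak53724 (log2, interval -0.30 to 0.66), -0.13 at peak53723 (-0.92 to 0.66), -0.27 at peak53722 (-1.15 to 0.60) and -0.12 at peak53721 (-0.98 to 0.73). All 4 intervals include 0 and are wide, so a difference in the LPS response at Cxcl10 was not detectable with 2 mice, which does not show that the responses are alike.

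**Figure D4:**
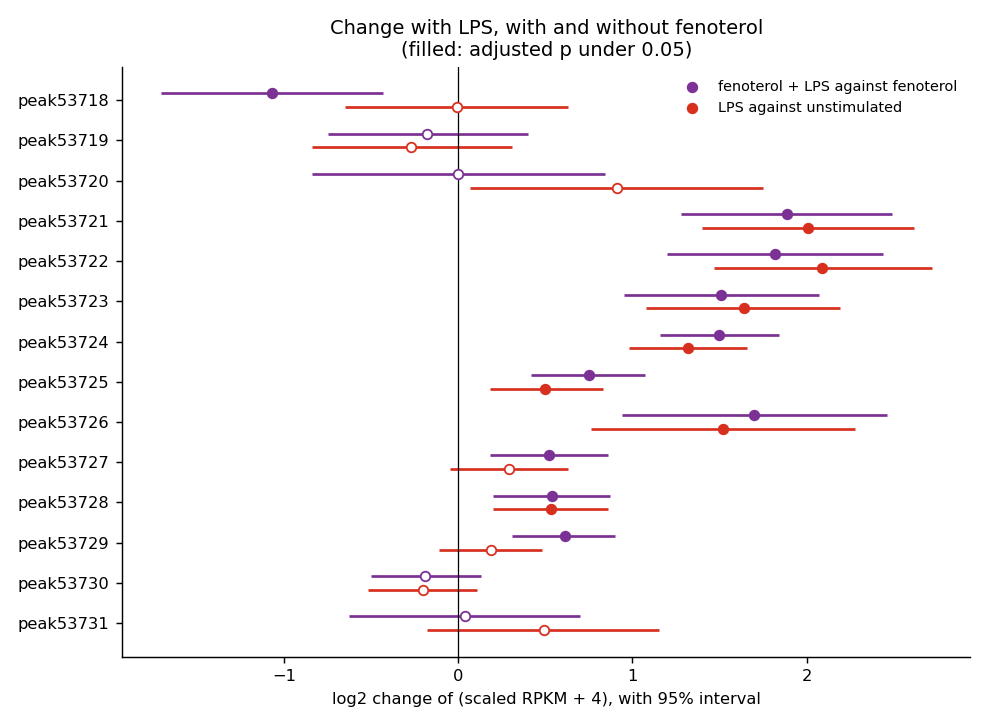
Log2 change of RPKM + 4 with its 95% interval for each peak, for fenoterol + LPS against fenoterol (upper, purple) and LPS against unstimulated cells (lower, red), filled where the adjusted p is under 0.05. The peaks from peak53721 to peak53724 and peak53726 rose by 1.32 to 2.09 in both, and the intervals of the 2 comparisons overlap at every peak.

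Fenoterol alone for 15 min gave no call in the region. Against unstimulated cells 0 of the 14 peaks rose and 0 fell by limma-trend or by voom (31 calls over all peaks by voom), where by limma-trend 0.00599% of all tested peaks rose and 0.0015% fell, and 0 members had an unadjusted p under 0.05, against 7.43% of all tested peaks. The difference was -0.27 at peak53724 (log2, interval -0.61 to 0.07), -0.28 at peak53723 (-0.84 to 0.28), -0.30 at peak53722 (-0.92 to 0.32) and -0.31 at peak53721 (-0.91 to 0.30). The mice went opposite ways at all 4 of these. Against unstimulated cells of the same mouse, peak53721 stood at 0.36 times in mouse 1 and 1.34 times in mouse 2, peak53722 at 0.35 and 1.43 times, and peak53724 at 0.621 and 1.04 times. These 3 were lower in mouse 1, whose unstimulated library is the shallow one, while peak53723 was at 1.05 and 0.57 times. With the shallow library as the only unstimulated one, that is without mouse 2, peak53724 was called lower (log2 change -0.53, adjusted p = 0.0453), and the calls over all peaks then came to 3554.

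Whether prior β2 adrenergic stimulation altered chromatin in LPS-treated cells is addressed by fenoterol + LPS against LPS. No peak of the region passed by limma-trend, nor did any of all tested peaks, so that 0% were called in either direction, and 1 member, peak53718, had an unadjusted p under 0.05, as did 6.66% of all tested peaks. Other fits called peaks elsewhere but 0 of the 14: voom on the recovered reads called 402 peaks over the whole table, voom with the mouse as a block 531, and limma-trend on the libraries of these groups alone 256. At 6 peaks the value was lower with fenoterol + LPS than with LPS in both mice, which held for 29.2% of all tested peaks, and at 3 it was higher in both, which held for 29% of them.

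At Cxcl10 the values were as follows, none of them past the threshold. With fenoterol + LPS, peak53722 stood at 0.628 times its LPS value in mouse 1 and 0.652 times in mouse 2 (log2 difference -0.58, interval -1.20 to 0.05, adjusted p = 0.781). Peak53721 stood at 0.663 and 0.772 times (-0.43, interval -1.04 to 0.18, adjusted p = 0.888), and peak53723 at 0.728 times in both mice (-0.41, interval -0.97 to 0.15, adjusted p = 0.874). By voom the adjusted p was 0.0834 for peak53722, 0.22 for peak53721 and 0.566 for peak53723. At each of these 3 the groups overlapped, because the fenoterol + LPS value of mouse 2 lay above the LPS value of mouse 1. Peak53724 stood at 0.812 times in mouse 1 and 1.08 times in mouse 2 (-0.09, interval -0.43 to 0.25, adjusted p = 0.974). Leaving out 1 library moved the difference of peak53722 between -0.89 and -0.26, that of peak53721 between -0.76 and -0.10 and that of peak53723 between -0.66 and -0.17. The values nearest 0 came without mouse 1 of fenoterol + LPS, where peak53724 was at 0.02, and for peak53723 also without mouse 2 of LPS. The difference between these 3 peaks and peak53724 was not tested.

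Elsewhere in the region, peak53726 had the highest fitted difference, at 1.03 times in mouse 1 and 2.12 times in mouse 2 (log2 difference 0.46, interval -0.30 to 1.22, adjusted p = 0.92). Peak53718 had the lowest difference, at 0.536 and 0.367 times on 5 to 14 reads (-0.83, interval -1.47 to -0.19, adjusted p = 0.608). Peak53720 stood at 0.325 and 0.755 times (-0.70, interval -1.54 to 0.15, adjusted p = 0.83). On the Cxcl11 side the intervals were narrower at some peaks: -0.28 to 0.38 at peak53725, -0.28 to 0.41 at peak53727 and -0.36 to 0.31 at peak53728. They were -0.12 to 0.46 at peak53729 and -0.53 to 0.10 at peak53730.

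**Figure D5:**
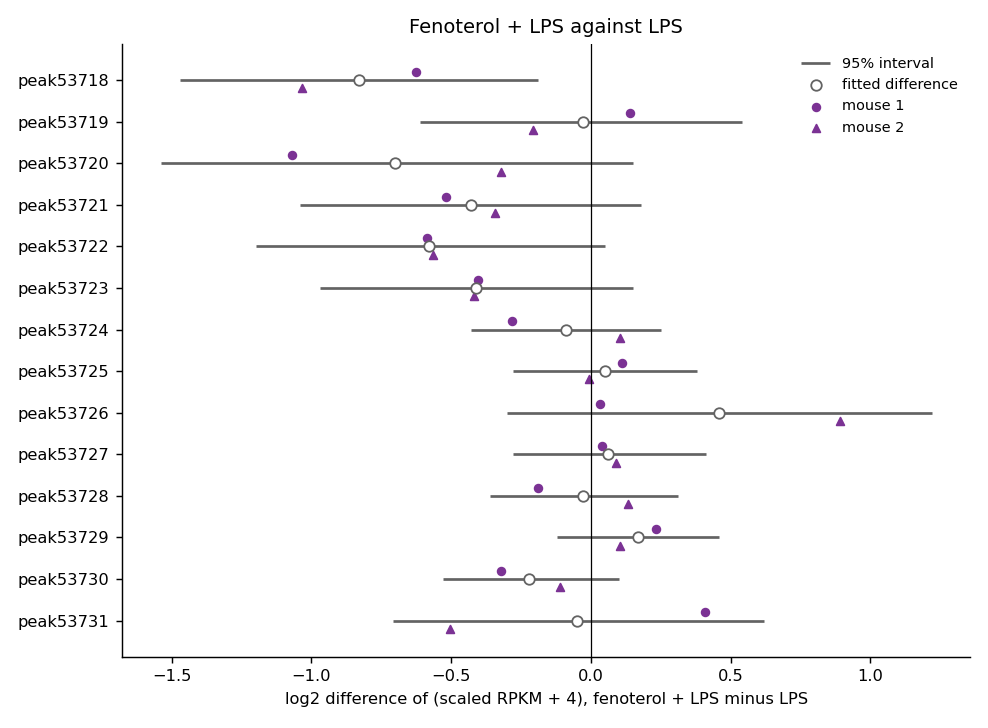
Log2 difference of RPKM + 4 between fenoterol + LPS and LPS for each peak, as the fitted value with its 95% interval (open circles) and within each mouse (purple circle, mouse 1; triangle, mouse 2). Both mice lie left of 0 at peak53721, peak53722 and peak53723, on either side of it at peak53724, and the interval crosses 0 at every peak but peak53718.

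Likeness to the Cxcl10 5′ peak was described by the Pearson correlation of log2(RPKM + 4) with peak53724 over the 8 libraries, which come from the same 2 mice and differ in depth. Of the other members, the closest were peak53727 (r = 0.974), peak53721 (0.968), peak53722 (0.959) and peak53725 (0.952), and peak53726 had 0.908. Peak53723, at Cxcl10 and 164 bp from peak53724, had 0.867. On the Cxcl11 side peak53729 had 0.888, peak53728 0.827 and peak53731 0.219. The 3 peaks of the Cxcl9 side had -0.482, -0.509 and 0.369, and peak53730 had -0.422. Of 66772 tested peaks outside the region, 1139 (1.71%) had r of at least 0.95. The 5 most alike lay on chromosome 2 at 48471161 to 48471716 (r = 0.997), on chromosome 5 at 91333169 to 91334323 (0.996), on chromosome 10 at 30469313 to 30469806 (0.995), on chromosome 12 at 21341654 to 21342605 (0.995) and on chromosome 6 at 140562254 to 140562808 (0.994). That on the same chromosome held 56.7 and 60.1 RPKM with fenoterol + LPS, 65.5 and 59.4 RPKM with LPS, 7.34 and 10.9 RPKM with fenoterol, and 16.2 and 8.12 RPKM unstimulated. Like peak53724 it was high in all 4 libraries with LPS, and its highest value without LPS was in the unstimulated library of mouse 1. It was picked by its correlation over these same 8 libraries, so this likeness follows from the choice.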

How the data were processed

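Crude nuclei were treated with Tn5, and fragments were amplified and size selected, per the labels' protocols. Cutadapt, Bowtie2, MACS2 and HOMER were used on build mm9, per the submitters' processing notes; the sources used here do not give whether duplicates were removed, reads shifted for Tn5 or samples pooled for peak calling. The deposited table gives the authors' RPKM per peak and library. RPKM times length came within 0.01 read of whole reads for 100% of values, so reads were recovered. RPKM was divided by median-ratio size factors (0.9401 to 1.037), and the lowest 10% of peaks by mean (filter at 9.62 RPKM) did not enter. All 66786 others were fitted with limma 3.58.1 in R 4.3.3 (4 group means, 8 libraries, pseudocount 4). The prior spread counted as 16.4 degrees of freedom, beside 4 residual ones. The script was tested on simulated data.

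Same-numbered libraries come from the same mouse per the labels, which pairs them; differences between the mice correlated at 0.0223 to 0.0713 across groups. The fit reported leaves this pairing out. Its p-values rest on 2 mice per group, with the spread pooled over the 4 groups and drawn toward that of all tested peaks. Chi-square over degrees of freedom was 0.89 to 1.21 between the 2 libraries of a group, each counted as a separate sample since they are labelled as different mice. Intervals of reads are exact Poisson, for counting error only.

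The members, motifs and named peaks (all 14) were chosen with earlier results of these data known. Other interferon-response genes were not analysed here, for lack of an mm9 annotation. Alternatives were unscaled RPKM, quantile normalization, a pseudocount of 0.8 or 20, all peaks kept or the lowest 25% dropped, a fit with constant prior variance, a block for the mouse, fits of the compared groups alone, voom on recovered reads, leaving out each library, and, added after seeing the data, voom with the mouse as a block.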

Additional observations from a re-analysis of the deposited data

How the results depend on the processing

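Calls over all peaks moved with the processing too, so the counts below are not particular to the region. For LPS against unstimulated cells they were 6726, and 3914 to 8149 under alternatives that kept all 8 libraries or the 4 compared. For fenoterol + LPS against fenoterol they were 9182, and 6635 to 13750. They also differed with 1 library left out. The number of peaks of the region called for LPS against unstimulated cells was 7 and stayed at 5 to 7 under each alternative that kept all 8 libraries or the 4 compared. With 1 library left out it ran from 4, without either LPS library, to 7. For fenoterol + LPS against fenoterol it was 10, and 7 to 10 under the alternatives that kept the libraries compared; with 1 library left out it ran from 6, without either fenoterol + LPS library or the fenoterol library of mouse 1, to 10. For fenoterol against unstimulated cells it was 0, and 0 to 1 with 1 library left out, the 1 being without the unstimulated library of mouse 2. For fenoterol + LPS against LPS and for the interaction it was 0 under every alternative run; the interaction needs all 4 groups and has no fit of 2 groups alone. With the mouse as replicate block, the paired fit, the counts were 7, 10 and 0, and it changed no call of a named peak. The difference of peak53724 between fenoterol + LPS and LPS turned to 0.02 without mouse 1 of fenoterol + LPS, and with 1 library left out it ran from -0.19 to 0.02; the cause was not tested. With a pseudocount of 20 the LPS change of peak53721 was 1.17 and that of peak53722 1.23, and with 0.8 they were 2.40 and 2.50; the pseudocount enters the logarithm directly. Peak53726 was not among the 12 members tested with the lowest 25% left out. Group means of the region's level moved by less than the spread between the mice under the scalings tried. Depth limits the low peaks most: 1 to 4 reads lie behind the unstimulated values of peak53726.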
